A study of Mus musculus with 5 samples.

Results

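Hox genes encode homeodomain transcription factors that give cells of the embryo their position along the head-to-tail axis. They lie in 4 chromosomal clusters, Hoxa to Hoxd, and within each cluster the gene number, called the paralogue group, follows the order of the genes: low numbers stand at the 3′ end and are used further forward in the body, high numbers stand at the 5′ end and are used further back. The hindgut, from which the colon forms, is known for expression of high-numbered Hox genes, and a part of this pattern persists in adult gut. A whole newborn mouse, by contrast, pools tissues from every level of the axis, with limbs, vertebrae, spinal cord and kidney among the known sites of Hox expression.

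The Hox genes described here were taken by symbol, as Hox followed by a, b, c or d and a number, from probe sets annotated to 1 gene only. This gave 37 probe sets for 31 genes, out of 22626 probe sets and 12393 named genes on the array, and of the 39 Hox genes in a RefSeq table of assembly GRCm38.p6. The remaining Hox genes were not analysed here, and 3 probe sets annotated to several Hox genes were left out. For the 5 genes with several probe sets, the one with the highest mean log2 signal stood for the gene. The antisense gene Hoxa11os is no member and is described beside its neighbours.

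Total RNA came from colons of C57BL/6 mice aged 8 weeks and from whole C57BL/6 mice aged 1 day, each pooled from multiple animals. The pools were mixed at colon shares of 0%, 25%, 50%, 75% and 100%, so the 0% array is whole mouse and the 100% array is colon. Each mix was amplified in T7 reactions from 10 ng of total RNA and hybridised to 1 Affymetrix array, 5 in all, with no replicate. Tissue and age differ together between the pools, and in such bulk RNA a change in the number of cells of a type cannot be told apart from a change in RNA per cell.

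All values below are the authors' log2 signals. Where 5 values are given they run from 0% to 100% colon. A fitted difference is the slope of the log2 signal on the colon share over all 5 arrays by limma, colon minus whole mouse, with its standard error (SE). A gene "rose" or "fell" when that slope passed a Benjamini-Hochberg adjusted p of 0.05 over all probe sets. These p-values measure technical spread and departure from a straight line, not the spread between mice.

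Median log2 signals of the arrays lay between 6.83 and 6.92. The labelled tissue was checked against 13 measured markers of colon epithelium, none of which was below background in colon, and whose summed linear intensity was 96749 on the colon array and 14550 on the whole mouse array. As a gauge of background, 68 probe sets of olfactory, vomeronasal and taste receptor genes had a median log2 signal of 4.76, and 95% of their values lay below 6.82. Probe sets differ in their own background, so 6.82 is a rough level only. By that gauge 15 of the 31 Hox genes were above background on at least 1 array, 5 of them on all 5 arrays (Hoxa9, Hoxb2, Hoxb5, Hoxd8 and Hoxd9), and 16 on none.

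Promoter sequence is shown for 3 genes that had a window: Hoxa9 and Hoxa10, neighbours at the 5′ part of the Hoxa cluster that both rose, and Hoxd9. Hoxd9 is a paralogue of Hoxa9 and did not rise, and neither did the paralogues Hoxb9 and Hoxc9. No window was available for Hoxb13, Hoxb6, Hoxb9 or Hoxc8, so the choice of genes was limited by this. The windows are the 250 bases before the annotated start in RefSeq, build GRCm38.p6, written 5′ to 3′ on the gene's strand, with the homeodomain core TAAT (or ATTA, its other strand) in capitals. For Hoxa10, which has 2 windows in that table, the one further 5′ is shown.
Hoxa9, chr6:52227371-52227620, minus strand: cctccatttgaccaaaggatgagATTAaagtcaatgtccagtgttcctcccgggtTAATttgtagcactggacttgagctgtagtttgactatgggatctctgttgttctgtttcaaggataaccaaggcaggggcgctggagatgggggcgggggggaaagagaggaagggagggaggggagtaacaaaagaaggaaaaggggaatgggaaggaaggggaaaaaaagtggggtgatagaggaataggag
Hoxa10, chr6:52240855-52241104, minus strand: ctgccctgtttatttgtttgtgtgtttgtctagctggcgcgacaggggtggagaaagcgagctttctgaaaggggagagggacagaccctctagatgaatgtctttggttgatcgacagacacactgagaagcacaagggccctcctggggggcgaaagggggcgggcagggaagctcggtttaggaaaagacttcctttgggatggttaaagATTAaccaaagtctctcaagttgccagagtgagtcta
Hoxd9, chr2:74697513-74697762, plus strand: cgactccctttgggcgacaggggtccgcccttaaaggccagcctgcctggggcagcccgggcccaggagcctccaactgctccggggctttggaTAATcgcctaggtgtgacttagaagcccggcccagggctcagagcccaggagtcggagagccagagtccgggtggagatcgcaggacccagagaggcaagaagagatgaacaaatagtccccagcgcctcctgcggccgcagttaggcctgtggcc

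TAAT was found on either strand 2 times in the Hoxa9 window, and 1 time each in the Hoxa10 and Hoxd9 windows. Windows for 18 of the 31 Hox genes were in the table, 20 windows in all, and 15 of these held TAAT, against 54.9% of all 32851 windows of the same length. The motif TTTATNG, which posterior Hox and caudal-type homeodomains are known to bind, was searched on both strands and was found in 0 of the 20 windows, against 9.81% of all windows. The count of CG dinucleotides was 3 for Hoxa9, 7 for Hoxa10 and 13 for Hoxd9, the median being 13 over the 20 Hox windows and 6 over all windows. These matches describe the letters of the windows only.

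Few Hox genes followed the dilution past the threshold. Hoxa9, Hoxa10 and Hoxb6 rose and Hoxc8 fell. The 3 that rose are 9.68% of 31, beside a background of 8.63% of all probe sets that rose, and the 1 that fell is 3.23%, beside 10.9% that fell, so the Hox genes as a group were not called more often than other probe sets. Their median fitted difference was 0.13 log2, against −0.01 over all named genes. With 1 probe set per gene, chosen as for the Hox genes, 1215 of the 12393 named genes rose and 1797 fell. Between the undiluted arrays 5 of 31 (16.1%) were at least 2-fold higher in colon, beside 8.19% of all probe sets, and 0 were at least 2-fold higher in whole mouse, beside 7.79%. Those 5 genes, Hoxb13, Hoxa9, Hoxa10, Hoxb9 and Hoxb6, all lie in the Hoxa and Hoxb clusters. Hoxb9 was below the background gauge on all arrays, and colon stood 0.30 log2 above the gauge for Hoxa10, so counted from the gauge neither differed by 2-fold. Counted so, colon was at least 1.23 log2 higher for Hoxb6, and Hoxa9 was above the gauge on all arrays. In 18 of the 31 genes the 5 signals spanned less than 0.5 log2.

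**Figure D1:**
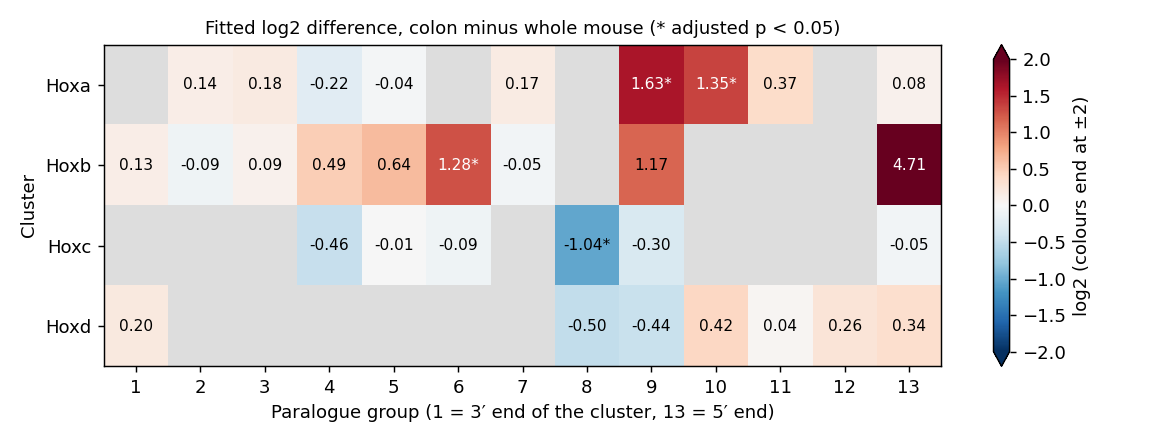
Fitted log2 difference, colon minus whole mouse, for each of the 31 measured Hox genes, arranged by cluster (rows) and paralogue group (columns). Red is higher in colon, blue higher in whole mouse, grey not analysed, and an asterisk marks the 4 genes past an adjusted p of 0.05; the colour scale ends at 2 log2, so Hoxb13 at 4.71 is off the scale.

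Hoxb13, the last gene of the Hoxb cluster and in mouse known for expression in the tail end of the embryo, distal gut and prostate, differed most between the undiluted RNAs. Its log2 signals were 4.38, 8.71, 9.40, 9.65 and 9.80 from 0% to 100% colon. The 4 arrays that contained colon RNA all lay above the background gauge, and the whole mouse array lay below it. The undiluted arrays were 5.42 log2 apart, and counted from the background gauge instead of the whole mouse signal the colon array was at least 2.98 log2 higher. The signals were in strict order, but they did not lie on a straight line, and the fitted difference of 4.71 (SE 1.50) had a limma adjusted p of 0.0906, which misses the threshold. Fitted on linear intensity, the scale on which mixing adds, Hoxb13 passed with an adjusted p of 0.0367. Without the whole mouse array the fitted difference over the mixtures and colon was 1.41 (adjusted p = 0.0734).

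Hoxa9 and Hoxa10, which with their neighbours pattern lumbar and sacral levels, limbs and the reproductive tract, both rose. Hoxa9 had 7.85, 8.88, 9.14, 9.17 and 9.74, a fitted difference of 1.63 log2 (SE 0.31, limma adjusted p = 0.0275), with every step upward. The other Hoxa9 probe set did not share this: its signals were 7.93, 7.68, 7.80, 8.08 and 8.02, with a slope of 0.23 (adjusted p = 0.434). Averaged over both probe sets the Hoxa9 slope was 0.93 and still passed. Hoxa10 had 5.62, 6.47, 6.71, 6.84 and 7.12, a fitted difference of 1.35 (SE 0.25, limma adjusted p = 0.0269), also in strict order, with the arrays at 75% and 100% colon above the background gauge. Hoxa9 missed the threshold without the whole mouse array (slope 1.04, adjusted p = 0.0896), the 50% array (1.63, 0.0679), the 75% array (1.74, 0.0759) or the colon array (1.69, 0.147), and Hoxa10 without the 50% array (1.35, 0.0666), the 75% array (1.37, 0.091) or the colon array (1.56, 0.111). Without the whole mouse array the Hoxa10 slope was 0.83 and still passed (adjusted p = 0.0442).

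Further along the Hoxa cluster the differences were smaller. Hoxa11, needed with Hoxd11 for the forearm and the kidney, had 6.63, 6.66, 6.86, 6.88 and 6.98, in strict order, with a fitted difference of 0.37 (SE 0.10, limma adjusted p = 0.0641). On linear intensity it passed (adjusted p = 0.0405). Hoxa11os, transcribed from the opposite strand at that locus and read by its own probe set, had 6.33, 7.75, 7.97, 8.32 and 8.02, with a slope of 1.58 (SE 0.54, adjusted p = 0.106). The 3 mixtures and colon lay more than 1 log2 above whole mouse for the antisense gene, while the whole range of Hoxa11 was 0.35. Hoxa13, which in mouse is needed for hindgut and digits, lay at 5.14 on the arrays from 0% to 75% colon and at 5.24 in colon, below the background gauge throughout.

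In the Hoxb cluster the middle genes of groups 4, 5 and 6, together with Hoxb9 and Hoxb13, had the larger positive slopes. Hoxb6, active in the mesoderm of trunk and gut in the embryo, had 6.75, 7.37, 7.88, 7.98 and 8.06, and rose by a fitted 1.28 log2 (SE 0.25, limma adjusted p = 0.0289). Every step was upward and the 4 arrays with colon RNA were above the background gauge. The call was lost without the whole mouse array (slope 0.86, adjusted p = 0.118), the 25% array (1.33, 0.0654), the 75% array (1.26, 0.101) or the colon array (1.67, 0.0665). Hoxb5, known in developing lung and enteric neurons, had 7.90, 8.01, 8.30, 8.59 and 8.41, with a slope of 0.64 (SE 0.17, limma adjusted p = 0.0617), and passed when arrays were centred on their medians (adjusted p = 0.0357).

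Hoxb9, a gene of thoracic and more posterior levels, had 5.35, 6.44, 6.22, 6.64 and 6.71, with a slope of 1.17 (SE 0.35, limma adjusted p = 0.078). All 5 of its values lay below the background gauge, though the whole mouse array was more than 0.5 log2 below each of the others. It passed when arrays were centred (adjusted p = 0.0401) and without the 25% array (slope 1.43, adjusted p = 0.0392), and the slope without the whole mouse array was 0.50. Hoxb4, known for its role in blood stem cells, had 6.43, 6.78, 6.53, 6.96 and 6.96, a slope of 0.49 (adjusted p = 0.139), and its other probe set had a slope of −0.01.

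**Figure D2:**
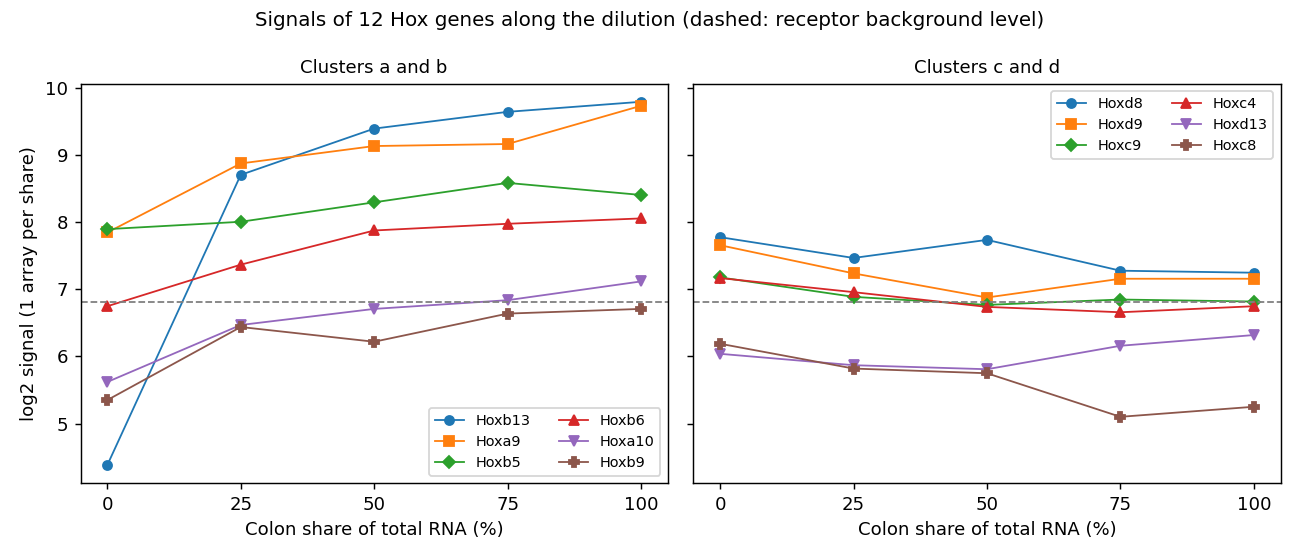
Log2 signal of 12 Hox genes against the colon share of total RNA, with 1 array per share, for clusters a and b (left) and clusters c and d (right). The dashed line is the background gauge at 6.82; Hoxb13 stands at 4.38 in whole mouse and between 8.71 and 9.80 on the other arrays, and on the right the signal is lower in colon than in whole mouse for every gene except Hoxd13, at 6.32 in colon and 6.04 in whole mouse.

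In the Hoxc cluster 1 of 6 measured genes, Hoxc8, passed the test. The 6 slopes lay between −1.04 and −0.01, with a median of −0.20. Without the whole mouse array 3 of them were positive (Hoxc5 0.26, Hoxc6 0.41 and Hoxc13 0.10), and with arrays centred on their medians Hoxc5 was 0.08 and Hoxc13 0.04. Hoxc8, which acts in the lower thoracic skeleton and in motor neurons of the forelimb level, had 6.19, 5.82, 5.75, 5.10 and 5.25, and fell by a fitted 1.04 log2 (SE 0.21, limma adjusted p = 0.0321). All 5 Hoxc8 values lay below the background gauge, and the arrays at 75% and 100% colon were the lowest. The call was lost without any 1 of the arrays, with slopes of −0.95 (adjusted p = 0.164) without whole mouse, −1.08 (0.0713) without 25%, −1.04 (0.0742) without 50%, −0.89 (0.0536) without 75% and −1.34 (0.0817) without colon, and on linear intensity (adjusted p = 0.0602).

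The other Hoxc genes did not pass. Hoxc4, of neck levels, had 7.17, 6.96, 6.74, 6.66 and 6.75 (slope −0.46, limma adjusted p = 0.0911), with colon 0.43 below whole mouse. Hoxc9, which sets thoracic motor neuron identity, had 7.18, 6.89, 6.77, 6.85 and 6.82 (slope −0.30, adjusted p = 0.244). For both genes the whole mouse array was the highest of the 5. Hoxc6, also a thoracic gene, had 7.14, 6.64, 6.65, 6.85 and 6.91, and its 3 probe sets had slopes of −0.37, −0.09 and 0.06. Hoxc5 stayed between 5.46 and 5.78, and Hoxc13, known for hair and nails, between 5.67 and 5.86, all below the background gauge. Without the whole mouse array the median slope of the 6 genes was 0.03.

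None of the 7 Hoxd genes passed the test. Only Hoxd8 and Hoxd9 were above the background gauge on any array. Hoxd8 had 7.78, 7.47, 7.74, 7.28 and 7.25 (slope −0.50, SE 0.19, limma adjusted p = 0.139), with the arrays at 75% and 100% colon lowest. Hoxd9 had 7.66, 7.24, 6.88, 7.16 and 7.16 (slope −0.44, adjusted p = 0.34), with whole mouse highest, and without that array its slope was 0.01. Hoxd10, which acts in lumbar motor neurons and the hindlimb, had 5.34, 5.58, 5.75, 5.78 and 5.77, a slope of 0.42 (SE 0.13, adjusted p = 0.0887). Hoxd11 (slope 0.04), Hoxd12 (0.26) and Hoxd13 (0.34), the genes of limb, digits and hindgut, stayed below the background gauge, with adjusted p-values of 0.871, 0.344 and 0.313. Hoxd1 lay between 3.94 and 4.25.

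In paralogue groups 1 to 3, which act in the hindbrain and the pharyngeal arches, 6 genes were measured, none rose or fell, and their slopes lay between −0.09 and 0.20. Hoxb2, a hindbrain gene, had 7.24, 7.12, 6.97, 7.14 and 7.12 and was the only one of the 6 above the background gauge. Between the undiluted arrays Hoxa2, Hoxa3, Hoxb1 and Hoxb3 differed by −0.02 to 0.13 log2, Hoxb2 by −0.12 and Hoxd1 by 0.24. Central genes of groups 4 to 8 had a median slope of −0.04 over 12 genes, of which 1 rose and 1 fell. Hoxa5, which patterns lung and neck, lay between 6.79 and 6.96, Hoxa7 between 6.55 and 6.89, Hoxa4 between 4.05 and 4.44 and Hoxb7 between 4.95 and 5.19. Posterior genes of groups 9 to 13 had a median slope of 0.34 over 13 genes, of which 2 rose and none fell, beside background shares of 8.63% and 10.9%.

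Position and difference were set side by side next. Across the 31 genes, which are not independent replicates and share the same 5 arrays, the fitted difference had a Pearson correlation of 0.30 and a Spearman correlation of 0.20 with the paralogue number, given as a description only. Without Hoxb13 these were 0.13 and 0.13. For the 18 genes of clusters a and b alone they were 0.57 and 0.48, and 0.43 and 0.40 without Hoxb13. For the 13 genes of clusters c and d they were 0.23 and 0.42, and for the 15 genes above the background gauge on any array 0.56 and 0.33. That last choice admits Hoxb13, Hoxb6, Hoxa10, Hoxa11 and Hoxb4 only through arrays with colon RNA. It therefore favours genes higher in colon, and its values are no independent support. Between the 75% and 25% mixtures, which exclude both undiluted arrays, the difference of the 31 genes had correlations of 0.10 and 0.04, and for clusters a and b without Hoxb13 of 0.01 and 0.07.

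Splitting by position and cluster together, a grouping chosen after the values were seen, the 6 posterior genes of clusters a and b had a median slope of 1.26 and were all positive. Between the undiluted arrays 4 of them were at least 2-fold higher in colon, beside 8.19% of all probe sets. Of those 4, Hoxb9 and Hoxa10 did not differ by 2-fold when counted from the background gauge. For Hoxa9 the other probe set differed by 0.09 log2 between the undiluted arrays. The 7 posterior genes of clusters c and d had a median of 0.04, with 4 positive and 3 negative. The 7 central genes of clusters a and b had a median of 0.17, and the 5 central genes of clusters c and d, all negative, of −0.46.

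**Figure D3:**
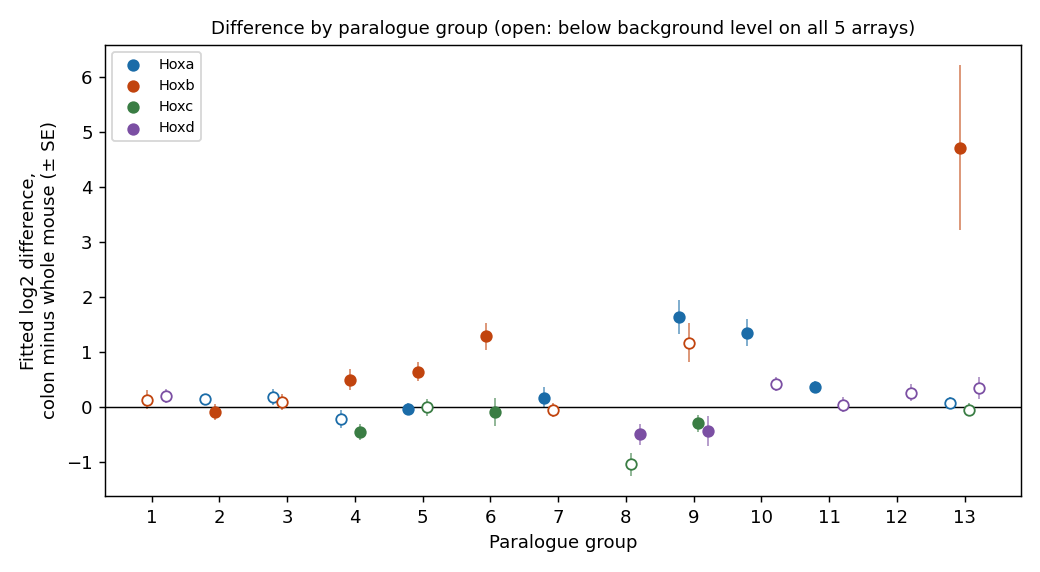
Fitted log2 difference, colon minus whole mouse, against paralogue group for the 31 Hox genes, coloured by cluster, with 1 point per gene and bars of 1 standard error. Open points are the 16 genes below the background gauge on all 5 arrays; differences above 1 log2 are seen only for Hoxb6, Hoxa9, Hoxb9, Hoxa10 and Hoxb13.

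Paralogues of 1 group share close sequence, and no pair had a difference in slope that passed the test after adjustment. Each of 26 pairs within a group was compared by the slope of the difference of the 2 log2 signals, with a two-sided exact permutation test over the 120 orders of the arrays. Hoxa9 exceeded Hoxd9 by a slope of 2.06 (exact permutation p = 0.0333, adjusted p = 0.124 over the 26 pairs) and Hoxc9 by 1.93 (p = 0.0333, adjusted p = 0.124). The Hoxa9 values in these pairs are those of its brightest probe set, and its other probe set had a slope of only 0.23. Hoxb9 exceeded Hoxd9 by 1.60 (exact permutation p = 0.0167, adjusted p = 0.108), and Hoxa10 exceeded Hoxd10 by 0.92 (p = 0.0167, adjusted p = 0.108). Hoxb13 exceeded Hoxa13 by 4.63 and Hoxc13 by 4.76, each with an exact permutation p of 0.0167 and an adjusted p of 0.108, and Hoxd13 by 4.37 (p = 0.1, adjusted p = 0.173). The value 0.0167 is the smallest that 5 arrays can give, and 4 of the 26 pairs reached it. Even there the adjusted p was 0.108, so these pairs could not pass however large their difference. The lack of passing pairs therefore does not show that paralogues had like slopes. Between Hoxa9 and Hoxb9 the slope differed by 0.46 (exact permutation p = 0.233), and between Hoxc9 and Hoxd9 by 0.13 (p = 0.533), so no difference was shown within either pair.

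The mixtures were placed between the undiluted arrays on linear intensity, as the distance from whole mouse divided by the distance from whole mouse to colon. For Hoxb13 the apparent colon share was 45.8% at 25% colon, 75.1% at 50% and 89.8% at 75%. All 3 lay above the labelled share. Over the 1853 probe sets at least 2-fold higher in colon the medians were 43.1%, 62.6% and 73.2%, so the 25% mixture gave a high share for these probe sets in general. Hoxa10 was close to those medians, at 44.1%, 61.7% and 73.1%. Hoxa9, by its brightest probe set, gave 38.4%, 53.7% and 55.3%, and Hoxb6 36.5%, 80.4% and 91.1%. Hoxb9, the 1 gene of these 5 below the background gauge on all arrays, gave 71.6%, 52.7% and 91.7%, out of order. Across all 31 genes the mixtures departed, in log2, from the intensity computed by mixing colon and whole mouse at the labelled share, with standard deviations of 0.27, 0.22 and 0.15 at 25%, 50% and 75% colon, and 23, 22 and 20 genes were below that computed value. Of the 31 genes, 5 were in strict rising order (Hoxa9, Hoxa10, Hoxa11, Hoxb6 and Hoxb13) and 0 in strict falling order. Of all named genes 20.7% were in strict order, rising or falling, so Hox genes were not in strict order more often.

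**Figure D4:**
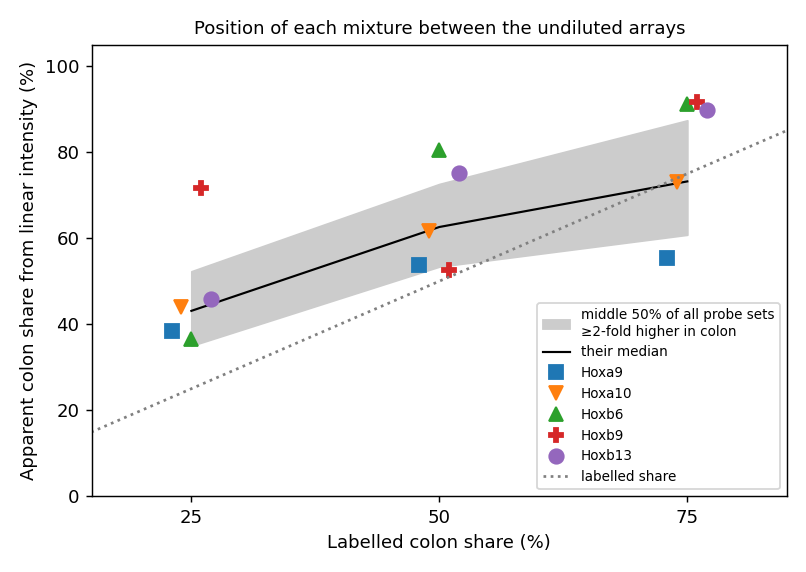
Apparent colon share of the 3 mixtures (vertical axis, percent) against the labelled share (horizontal axis, percent; points are shifted sideways for legibility) for the 5 Hox genes that differed by 2-fold or more between colon and whole mouse. The grey band holds the middle 50% of the 1853 probe sets at least 2-fold higher in colon and the black line their median, which starts at 43.1% for the 25% mixture; Hoxb9 at 71.6% lies above the band there.

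Genes that work with or upstream of Hox proteins were read from the same fit, in which 8.63% of all probe sets rose and 10.9% fell. These shares stand beside each count below, and no list was tested against them. The lists hold 1 probe set per gene, and counted that way 1215 of 12393 genes rose and 1797 fell. Some TALE homeodomain proteins, those of the Pbx and Meis families among them, bind DNA as partners of Hox proteins. Of 11 genes measured on the TALE list, which also holds Hmbox1, a homeobox gene outside that class, 0 rose and 2 fell. Tgif2, a TALE repressor, had 8.37, 7.77, 7.27, 6.87 and 6.35 and fell by 1.98 log2 (SE 0.11, limma adjusted p = 0.00373), and Meis2, below the background gauge on all 5 arrays, fell by 0.66 (adjusted p = 0.0392). Pbx2 stayed between 7.37 and 7.54 (adjusted p = 0.991). Caudal genes activate Hox genes in the posterior embryo and specify intestine. Of 6 caudal and ParaHox genes 2 rose and 0 fell. Cdx2 had 7.38, 9.57, 10.06, 10.62 and 10.77 and rose by 3.13 (SE 0.68, adjusted p = 0.0374), its other probe set having a slope of 1.50, and Cdx1 had 5.53, 8.13, 9.02, 9.16 and 9.49 and rose by 3.58 (SE 0.87, adjusted p = 0.0497). For both genes, as for Hoxb13, the 25% mixture already stood more than 2 log2 above whole mouse. That step is not particular to them: the colon epithelium marker Krt20, for example, had 7.86 in whole mouse and 12.03 at 25% colon. Gsx2 lay between 6.43 and 6.80 (adjusted p = 0.825).

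Retinoic acid induces Hox genes from the 3′ end of the clusters. Of 14 measured genes of its pathway 1 rose and 5 fell, beside 8.63% and 10.9% of all probe sets. The retinoic acid binding proteins Crabp2 and Crabp1 had slopes of −2.55 (limma adjusted p = 0.00373) and −2.22 (adjusted p = 0.00393), and the receptor Rxrg of −1.40 (adjusted p = 0.0215). Rdh10, which makes retinaldehyde, rose by 1.02 (adjusted p = 0.0345), chosen for mention after its value was seen as the 1 gene of this list that rose. Aldh1a1, a retinaldehyde dehydrogenase, had 8.19, 11.05, 11.37, 11.80 and 11.92 (adjusted p = 0.0705). Polycomb proteins keep Hox genes silent, and of 19 measured 0 rose and 4 fell, beside the same shares, with Cbx6 falling by 1.23 (adjusted p = 0.016), Phc1 by 0.80 (adjusted p = 0.0258) and Phc2 by 0.53 (adjusted p = 0.0422). Ezh1 had 9.17 to 9.64 (adjusted p = 0.053). Of 6 Trithorax genes, which keep Hox genes active, 0 rose or fell, with Wdr5 between 9.46 and 9.86 (adjusted p = 0.173). Among 9 other regulators 0 rose and the brightest probe set of Fgfr1 fell by 1.12 (adjusted p = 0.0117), its other having a slope of 0.04, and Gmnn had 7.87 to 8.28 (adjusted p = 0.369).

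Genes on the flanks of the clusters gave no common direction. Of 9 measured, 1 rose and 1 fell. Skap2, on chromosome 6 beside the Hoxa cluster, rose by 1.10 (SE 0.16, limma adjusted p = 0.016), and Copz2, on chromosome 11 beyond Hoxb1, fell by 1.06 (SE 0.12, adjusted p = 0.00896). Hnrnpa2b1 lay between 9.81 and 10.71 (adjusted p = 0.199). Evx1, the gene beyond Hoxa13, and Evx2, beyond Hoxd13, had slopes of 0.09 and 0.01.

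Markers of tissues in which Hox genes are known to act were read on the same arrays, where 8.63% of all probe sets rose and 10.9% fell, and their part in the Hox values was not tested. Of 15 limb and axial patterning genes 0 rose and 6 fell, led by Prrx1 (−3.46, adjusted p = 0.00465, with slopes from −3.46 to 0.01 over its 4 probe sets), Prrx2 (−2.31, adjusted p = 0.00951) and Tbx15 (−1.96, adjusted p = 0.0054, and 0.14 in its other probe set), and Pitx1 had 7.26 to 7.71. Summed linear intensity of this list was 983 in colon and 1957 in whole mouse. Spinal cord and motor neuron markers (3 of 7 fell) summed to 660 in colon and 2953 in whole mouse. Those that fell were Nefl, Nefm and Stmn2. Isl1, Mnx1, Lhx3 and Slc18a3 were below the background gauge on all 5 arrays, with slopes of −0.12, 0.43, 0.14 and 0.35. Cartilage markers (4 of 6 fell) summed to 469 and 6817, and kidney markers (2 of 7 fell, Umod and Cdh16) to 349 and 713. All 7 kidney markers were below the gauge in colon and 6 in whole mouse. In the other direction, markers of colon epithelium (3 of 13 rose) summed to 96749 in colon and 14550 in whole mouse. Those that rose were Krt18 and the Cdx1 and Cdx2 already counted among the caudal genes. Between the undiluted arrays the 13 were higher in colon by 1.31 (Tff3) to 7.39 log2 (Car1). Visceral smooth muscle markers (2 of 9 rose) summed to 32600 and 13757. Gut mesenchyme markers (1 of 7 rose) summed to 1206 and 1103, with a median slope of 0.02. The 1 that rose was Bmp4, at 8.18 in colon and 7.40 in whole mouse, and 3 of the 7 were below the gauge in colon. Enteric neuron and glia markers (1 of 6 rose and 2 fell) summed to 1008 and 839, but Vip alone made up 610 of the colon sum and 78 of the whole mouse sum. The other 5, a sum added after the values were seen, came to 398 in colon and 762 in whole mouse. Of these, Uchl1 had 6.56 in colon and 8.57 in whole mouse. Elavl4 and S100b were below the gauge on all 5 arrays, and Ret and Sox10 were above it on 1 array each.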

How the data were processed

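The authors deposited 1 log2 signal per probe set and array, made with RMA per the submitters' processing notes, which name no version. At the precision deposited, 40.5% of 22626 probe sets held exactly equal values on at least 2 arrays, after 64 control probe sets were set aside. Probe sets were named through the platform annotation (20380 with 1 gene, 691 with several, 1555 with none listed), with symbols updated through a RefSeq table of GRCm38.p6.

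A straight line in the colon share was fitted to the 5 log2 signals of each probe set with limma 3.58.1 (lmFit and eBayes, 3 residual degrees of freedom) in R 4.3.3, two-sided, adjusted over all probe sets, and checked on simulated data. No signal filter was used. With 1 array per share, the number of arrays limits the precision. The Hox genes, the gene lists and the tests were chosen with earlier results of these data known. Every measured Hox gene is named. From each other regulator list the rule took at most 3 called genes, those that changed most, plus the brightest uncalled gene, and tissue markers appear in counts. The Hoxa11os, Evx1, Evx2 and Rdh10 values, and the tissue markers given by name, were added after they were seen. Promoters were searched by exact match on both strands. Alternatives left out each array, centred arrays on medians, fitted linear intensity, let the variance follow the signal, kept only bright probe sets, averaged probe sets, dropped ambiguous ones, moved the class bounds or left out dim members.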

Additional observations from a re-analysis of the deposited data

How the results depend on the processing

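Each share had 1 array, so leaving out an array removed a share and a residual degree of freedom. The number of Hox genes that rose then lay between 0 and 3, against 3, and that fell was 0 in each such fit, against 1. Calls over all probe sets lay between 997 and 2998, against 4409 (168 to 1306 rising, 829 to 1692 falling), over Hox regulators between 6 and 16, against 23, and over tissue markers between 9 and 13, against 30. The median slopes lay between 0.06 and 0.28 for anterior, −0.12 and 0.20 for central and 0.12 and 0.39 for posterior genes, and between 0.08 and 0.39 for Hoxa, 0.41 and 0.59 for Hoxb, −0.39 and 0.03 for Hoxc and −0.03 and 0.25 for Hoxd. Linear intensity gave 5 rising and 0 falling Hox genes. Median centring gave 5 rising Hox genes, and 3148 rising and 2325 falling probe sets, against 1953 and 2456. With only bright probe sets 0 Hox genes fell, and the medians were −0.09, 0.64 and 1.63 by position, and 1.63 for Hoxa, 0.96 for Hoxb and −0.47 for Hoxd, with no Hoxc gene left. There the anterior value was that of Hoxb2 alone and the Hoxa value that of Hoxa9 alone. Leaving out members below background kept 1 anterior gene (Hoxb2, −0.09), 8 central genes (median 0.07) and 6 posterior genes (0.86). It kept 5 Hoxa genes (0.37) and 2 Hoxd genes (−0.47). The Hoxd, anterior and central values thus changed sign, the anterior one resting on 1 gene. As stated above, this filter favours genes higher in colon. Averaging probe sets gave 0.24 for Hoxb. Between the 75% and 25% mixtures 0 Hox genes were 2-fold apart, against 5. Mixing itself makes this difference smaller than that between the undiluted arrays, so the 2 counts are not on like scales. The medians between these mixtures were 0.17 for anterior, 0.15 for central and 0.20 for posterior genes, 0.26 for Hoxb, 0.05 for Hoxc and 0.02 for Hoxd. Trended variance and dropping ambiguous probe sets kept 3 rising and 1 falling Hox gene and left the medians by position and cluster as they were, and other class bounds gave 0.13 for anterior genes, against 0.14. For the other moves the cause was not tested. Of the 4 called Hox genes none changed sign under any setting run. Among the values of uncalled Hox genes under alternatives, 15 of 275 changed sign. No paired analysis was possible because each share had 1 array.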
